A study of Mus musculus with 6 samples.

Results

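The circadian clock genes examined here were Per1, Per2, Per3, Cry1, Nr1d1, Nr1d2, Dbp, Tef, Arntl and Clock. A probe set of the array was taken as theirs where its annotation gave exactly 1 gene symbol, equal to one of these names, and its probe sets were averaged to give the value of a gene. All 10 had at least 1 such probe set, which gave 10 of the 18193 genes measured and 25 of the 45037 probe sets tested. The samples were endothelial cells that had entered plugs of Matrigel, a basement membrane gel, in the peritoneum of nude mice on the Balb/c background. In 3 samples the gel contained recombinant MFAP5 (microfibrillar-associated protein 5, secreted and part of elastic microfibrils), and in the 3 Control samples it did not. RNA of each sample was read on 1 Affymetrix mouse genome array. All hosts, those of the Control plugs included, were nude mice, a strain that lacks mature T cells but keeps other leukocytes, and the sources used here give no host age, lighting or time of day of sampling. They speak of independent samples but do not tie each to an animal of its own, so the p-values below measure the spread between these samples, which may be technical.

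The mammalian clock is a transcriptional feedback loop that runs in nearly every cell type, endothelial cells and adipocytes included. ARNTL (also called BMAL1) and CLOCK form a dimer that binds E-boxes and switches on the Per and Cry genes, whose proteins return to the nucleus and block the dimer. The same dimer drives Nr1d1 and Nr1d2, which encode the REV-ERB nuclear receptors that repress Arntl through ROR elements, and Dbp, which encodes a PAR bZIP factor that binds D-boxes, as do its relatives TEF and HLF. In a running clock Arntl transcripts therefore peak at about the opposite time of day from those of Dbp and Nr1d1. Per1 is also an immediate early gene, which cAMP signalling through CREB and glucocorticoids induce within a short time.

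The stretches of DNA just before the annotated starts of these genes hold some of those elements, and the ones shown here are those of members whose signals are described below. RefSeq windows of 300 bases (build GRCm38.p6, 250 before to 50 after a start) were on hand for 9 of the 10 genes, in 14 windows, with none for Per2. Both strands were searched for 5 motifs. These were the E-box CACGTG, the related E′-box CACGTT, the D-box TTATGTAA, the ROR element TAGGTCA and TGACGTC, most of a full cAMP response element. The shorter half-site of that element was not searched for. Capitals mark a match. The Per3 stretch, chr4:151044708-151044915 on the minus strand, holds 2 D-boxes. The 2 Per1 stretches, chr11:69098699-69098948 and chr11:69099902-69100151 on the plus strand, lie before different annotated starts. The first holds an E-box and the second the letters TGACGTC. Upstream of Nr1d1, at chr11:98775378-98775627 on the minus strand, there is an E′-box read on the opposite strand. The Tef stretch shown is chr15:81802423-81802672, plus strand, with an E-box, and the window before its other annotated start, chr15:81811164-81811413, also holds one. The Arntl site is chr7:113207529-113207558, plus strand, where the ROR element begins at base 31 after the later of its 2 starts with a window.
Per3: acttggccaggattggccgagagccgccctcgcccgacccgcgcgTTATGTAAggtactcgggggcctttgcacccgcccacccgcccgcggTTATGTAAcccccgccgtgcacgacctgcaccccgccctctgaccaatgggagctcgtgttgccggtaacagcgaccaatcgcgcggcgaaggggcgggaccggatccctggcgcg
Per1, earlier start: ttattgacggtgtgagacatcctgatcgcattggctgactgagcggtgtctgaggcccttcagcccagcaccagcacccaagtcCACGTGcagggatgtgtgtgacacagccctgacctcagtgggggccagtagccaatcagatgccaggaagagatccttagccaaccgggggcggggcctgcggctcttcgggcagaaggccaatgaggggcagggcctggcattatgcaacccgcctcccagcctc
Per1, later start: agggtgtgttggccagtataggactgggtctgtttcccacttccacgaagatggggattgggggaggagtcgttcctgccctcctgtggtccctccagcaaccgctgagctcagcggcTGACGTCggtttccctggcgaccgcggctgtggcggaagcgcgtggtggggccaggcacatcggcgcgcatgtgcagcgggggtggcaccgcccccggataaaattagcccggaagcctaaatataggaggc
Nr1d1: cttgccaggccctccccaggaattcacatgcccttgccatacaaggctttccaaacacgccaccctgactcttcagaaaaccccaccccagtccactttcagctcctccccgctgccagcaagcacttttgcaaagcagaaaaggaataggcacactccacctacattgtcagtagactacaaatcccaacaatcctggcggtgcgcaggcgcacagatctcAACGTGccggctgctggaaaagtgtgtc
Tef: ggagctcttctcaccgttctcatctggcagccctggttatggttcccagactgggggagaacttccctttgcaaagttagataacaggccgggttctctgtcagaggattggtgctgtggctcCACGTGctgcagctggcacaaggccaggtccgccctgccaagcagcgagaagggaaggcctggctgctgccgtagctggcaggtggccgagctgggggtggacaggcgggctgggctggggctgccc
Arntl: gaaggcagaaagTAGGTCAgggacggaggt

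A D-box was found in 0.938% of all 32851 windows, and among the members in Per3 alone. The ROR element was present in 2.61% of all windows, with Arntl the sole member. The letters TGACGTC of the cAMP response element were in 3.21%, with Per1 the sole member. The E-box was in 7.15% of windows and in 3 members, Cry1, Per1 and Tef. The E′-box was in 4.68% of windows and in 2 members, Cry1 and Nr1d1. The windows of Dbp, Nr1d2 and Clock held none of these letters. A match is a description of the sequence and was not tested as a binding site.

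The deposited values are relative. The median of each probe set over the 6 arrays was set to 0, so that differences between arrays can be read, and levels cannot be compared between genes. The values were taken as log2 signals, and every fold rests on that. With 6 arrays the median lies midway between the middle pair, so those arrays carry values of the same size and opposite sign. Array medians lay between -0.03 and 0.00 with MFAP5 and between -0.01 and 0.05 in Control. Control replicate 1 stood apart: across probe sets, its correlation with Control replicates 2 and 3 was -0.03 and 0.02, while those had 0.69 with each other. Bacterial spike-in transcripts had mean signals of -0.04 to -0.01 on the MFAP5 arrays, against -0.32, 0.64 and 0.65 on Control arrays 1, 2 and 3. All 9 measured adipocyte markers were lower with MFAP5, with medians of -3.99, -2.64 and -0.97 in MFAP5 replicates 1, 2 and 3 and 1.15 to 1.35 in Control. The 14 endothelial markers had medians of -0.15 to -0.03 with MFAP5 and -0.06 to 0.20 in Control, and none of them passed the limma threshold (3 had an unadjusted p under 0.05). Because levels are removed by the centring, the amount of either cell type could not be read from these values. The adipocyte marker differences ran from -5.51 to -1.66, and falls of that size need adipocyte marker signal in the Control samples. In such samples fewer cells of a type and less RNA per cell cannot be told apart.

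Of the 10 clock genes 1, Dbp, fell with MFAP5 and none rose (limma adjusted p under 0.05, over all 18193 genes). Of all genes, 2.79% were called lower and 0.759% higher. At an unadjusted p under 0.05, 2 were higher, Per1 and Arntl, and 2 lower, Dbp and Nr1d1, where 5.33% of all genes were higher and 14.4% lower at that level. The unmoderated statistic, run as an alternative, called none of the 10 after adjustment, with 2 higher and 2 lower at an unadjusted p under 0.05. Without Control replicate 1, Arntl was called higher and Dbp and Nr1d1 lower, without MFAP5 replicate 2 Per1 was called higher and Dbp lower, and none of the 10 passed in limma when Control replicate 2 or 3 was left out, with 2 higher and 2 lower at an unadjusted p under 0.05 in each case. Of all genes, 646 passed with all arrays, 2674 without Control replicate 1, 469 without MFAP5 replicate 2, and 246 and 219 without Control replicate 2 or 3. The 3 MFAP5 values lay above the 3 Control values without overlap in 3 members, Per1, Arntl and Clock, and below them in 3, Nr1d1, Dbp and Tef. Across all genes such separation was found for 6.51% upward and 17.8% downward. The median difference of the 10 genes was -0.05, beside -0.08 for all genes, and 5 members had a positive and 5 a negative difference. Without Control replicate 1 the median of the 10 was 0.042, without Control replicate 3 it was -0.141, and with array weights 0.040, so its sign rests on the arrays and weights used.

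**Figure D1:**
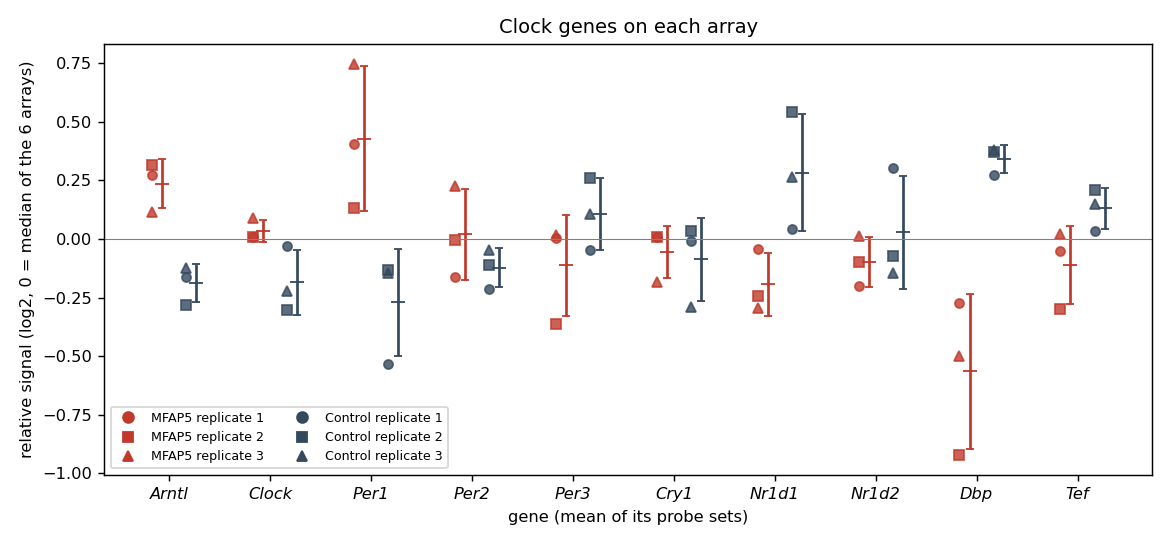
Relative log2 signal (0 is the median of the 6 arrays) of each clock gene on each array, with MFAP5 at the left and Control at the right of each pair; bars give the mean ± SD of 3 arrays. Dbp shows the widest gap, at -0.92 to -0.27 with MFAP5 and 0.27 to 0.38 in Control, while Arntl and Per1 lie higher with MFAP5.

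Dbp encodes the PAR bZIP factor DBP, an output of the clock that carries the rhythm of the dimer to genes with a D-box. Its signal was -0.27, -0.92 and -0.50 in MFAP5 replicates 1, 2 and 3, against 0.27, 0.37 and 0.38 in Control replicates 1, 2 and 3. The MFAP5 arrays were all below the Control arrays, MFAP5 replicate 2 was the lowest, and the Control arrays lay close together. The difference was -0.91 ± 0.16 (SE, n = 3 per group; 95% confidence interval -1.27 to -0.54; limma adjusted p = 0.0197), a signal 1.87-fold lower, and it ranked 365 by p among all genes. Both of its probe sets passed over all probe sets, at -0.996 (1418174_at, adjusted p = 0.0170) and -0.81 (1438211_s_at, adjusted p = 0.0452). The call was lost without Control replicate 2 (-0.89, adjusted p = 0.0989) or Control replicate 3 (-0.89, adjusted p = 0.104) and with the spike-in signal as covariate (-0.87, adjusted p = 0.0845), while the difference stayed between -1.05 and -0.73 whichever array was left out.

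Tef encodes the thyrotroph embryonic factor, which binds the same D-boxes. Its mean was -0.05, -0.30 and 0.02 in MFAP5 replicates 1, 2 and 3, against 0.03, 0.21 and 0.15 in Control. The groups did not overlap, though MFAP5 replicate 3 and Control replicate 1 were close, and the difference of -0.24 ± 0.12 (SE) did not pass (adjusted p = 0.296). Its 3 probe sets disagreed in sign, with differences of -0.57 for 1424175_at, -0.39 for 1450184_s_at and 0.23 for 1438033_at. The first of these had -0.06, -0.66 and -0.23 with MFAP5 and 0.06, 0.33 and 0.37 in Control, the same lowest array as Dbp, and missed the threshold (adjusted p = 0.136).

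Arntl encodes the partner of CLOCK in the activating dimer and is the member whose rhythm normally opposes that of Dbp. It stood at 0.27, 0.31 and 0.12 in MFAP5 replicates 1, 2 and 3, against -0.16, -0.28 and -0.12 in Control. Every MFAP5 array was above every Control array, with a difference of 0.42 ± 0.10 (SE, n = 3 per group; 95% confidence interval 0.19 to 0.66) that missed the threshold over all genes (limma adjusted p = 0.0649). Of its 2 probe sets, 1457740_at had 0.20, 0.26 and 0.20 with MFAP5 and -0.29, -0.36 and -0.20 in Control and passed narrowly (0.50 ± 0.11, adjusted p = 0.0499). The other, 1425099_a_at, differed by 0.35 and did not (adjusted p = 0.211). The gene passed with quantile normalization (0.47, adjusted p = 0.0437) and without Control replicate 1 (0.44, adjusted p = 0.0416). Within each array, Dbp minus Arntl was -0.55, -1.24 and -0.61 with MFAP5 and 0.44, 0.65 and 0.50 in Control, a contrast that a constant added to a whole array leaves as it is. Dbp and Arntl each separated the groups, in opposite directions, so this contrast had to separate them as well.

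Clock encodes the other subunit of the dimer, and its transcript varies little over the day in most tissues. It averaged 0.04 ± 0.05 with MFAP5 and -0.18 ± 0.14 in Control (SD, n = 3 each), a difference of 0.22 that did not pass (adjusted p = 0.296). All 4 of its probe sets had a positive difference, between 0.03 and 0.40. The widest, 1418659_at, had 0.27, -0.67 and -0.74 in the Control arrays, so that Control replicate 1 lay above all MFAP5 arrays and the other Control arrays below them.

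**Figure D2:**
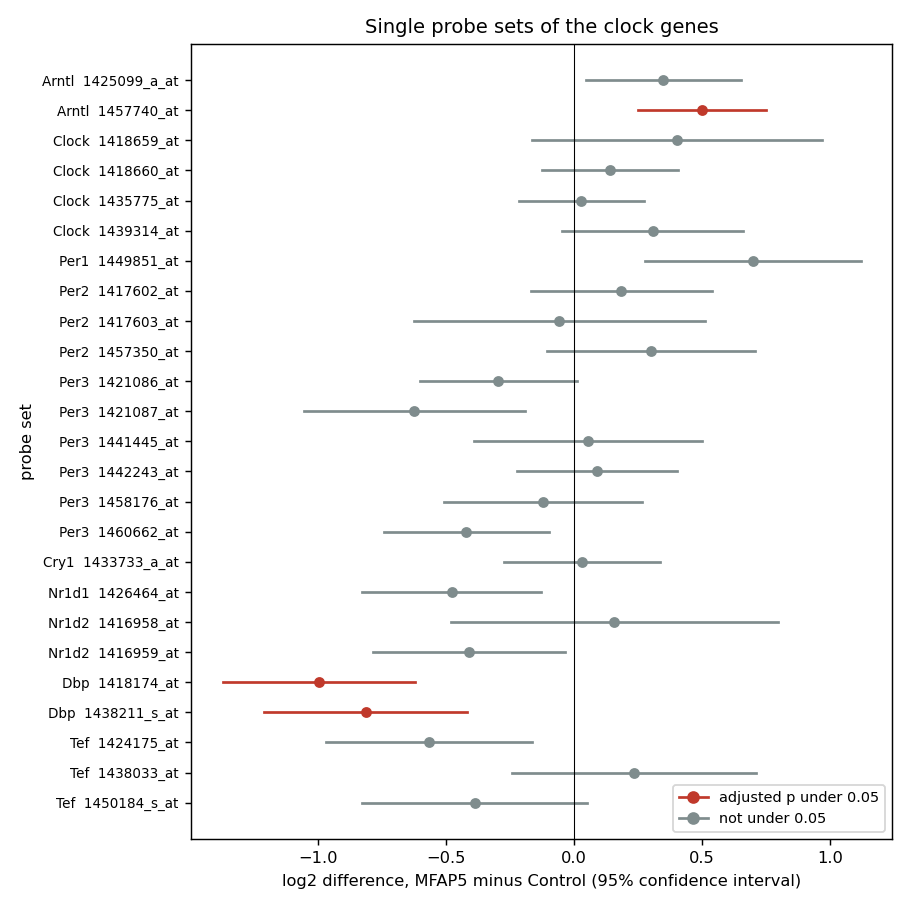
Difference between MFAP5 and Control arrays (log2, x axis) with its 95% confidence interval for each of the 25 probe sets of the clock genes, grouped by gene on the y axis. The probe sets in red, 1 of Arntl at 0.50 and both of Dbp at -0.996 and -0.81, had an adjusted p under 0.05, and those of Tef, Per2, Per3 and Nr1d2 fall on both sides of 0.

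Nr1d1 encodes REV-ERB alpha, the repressor of Arntl. Its single probe set had -0.04, -0.25 and -0.29 with MFAP5, against 0.04, 0.54 and 0.26 in Control replicates 1, 2 and 3. The groups did not overlap, with MFAP5 replicate 1 and Control replicate 1 as the middle pair. The difference of -0.48 ± 0.14 (SE, 95% confidence interval -0.81 to -0.15) missed the threshold (adjusted p = 0.119) and passed without Control replicate 1 (-0.60, adjusted p = 0.0301). Nr1d2, which encodes REV-ERB beta, had probe sets that disagreed. One of them, 1416959_at, differed by -0.41 (adjusted p = 0.234), and 1416958_at by 0.16, with Control values of 0.61, -0.57 and -0.45. On that probe set Control replicate 1 was above and the other Control arrays below all MFAP5 arrays, as in Clock 1418659_at. The mean of both gave a difference of -0.13 (adjusted p = 0.635).

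Per1 encodes a period protein of the repressing arm. Its signal was 0.40, 0.13 and 0.75 in MFAP5 replicates 1, 2 and 3, against -0.53, -0.13 and -0.15 in Control. All MFAP5 arrays were above all Control arrays, with MFAP5 replicate 3 the highest and Control replicate 1 the lowest. The difference was 0.70 ± 0.18 (SE, n = 3 per group; 95% confidence interval 0.30 to 1.10), or 1.62-fold, and missed the threshold (limma adjusted p = 0.0721); it passed without MFAP5 replicate 2 (0.85, adjusted p = 0.0470). A single probe set measured it.

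Per2 and Per3 encode the other period proteins, and neither passed the threshold. Per2 had -0.16, -0.01 and 0.23 with MFAP5 and -0.21, -0.11 and -0.05 in Control, with overlapping groups and a difference of 0.14 (adjusted p = 0.543). Per3 had 0.00, -0.36 and 0.02 with MFAP5 and -0.05, 0.26 and 0.10 in Control, which also overlap, with a difference of -0.22 (adjusted p = 0.411). Its 6 probe sets fell into different patterns. In 1421087_at, 1460662_at and 1421086_at the MFAP5 arrays were all below the Control arrays, with differences of -0.62, -0.42 and -0.30 and adjusted p of 0.128, 0.162 and 0.280. The first of these read -0.03, -0.60 and -0.24 with MFAP5 and 0.03, 0.54 and 0.43 in Control, with MFAP5 replicate 2 lowest as in Dbp. The other 3 probe sets overlapped between the groups, with differences of -0.12 to 0.09. Within each array, Per1 minus Per3 was 0.40, 0.50 and 0.73 with MFAP5 and -0.49, -0.39 and -0.25 in Control. Cry1, whose protein joins the period proteins in blocking the dimer, differed by 0.03 (95% confidence interval -0.25 to 0.31; adjusted p = 0.905) on its 1 probe set.

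Of the 25 member probe sets, 1 rose and 2 fell (limma adjusted over all probe sets), where 1.56% of all probe sets were called higher and 1.72% lower. The groups did not overlap upward in 5 and downward in 7, against 9% and 14.2% of all probe sets. Without Control replicate 1, 9 of the 25 passed, without MFAP5 replicate 2 or 3 only 1 did, and without Control replicate 2 or 3 none did by limma, with 7 and 9 at an unadjusted p under 0.05. Calls over all 18193 genes moved too, from 646 with all arrays to 2674 without Control replicate 1. They were 469 and 543 without MFAP5 replicate 2 or 3, and 246 and 219 without Control replicate 2 or 3.

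**Figure D3:**
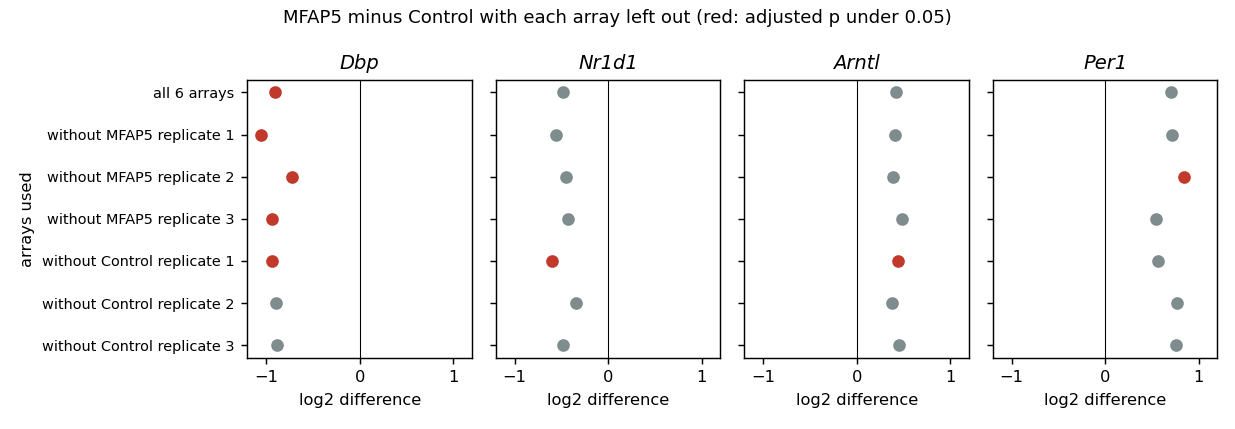
Log2 difference between MFAP5 and Control for Dbp, Nr1d1, Arntl and Per1 with all 6 arrays (top) and with each array left out (rows below); red points had a limma adjusted p under 0.05. Dbp passes in 4 of the 6 left-out settings, and Nr1d1, Arntl and Per1 in 1 each.

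Among 12 other listed genes of the core loop, 11 were measured, of which 1 rose and 1 fell. Over all genes, 0.759% were called higher and 2.79% lower. Hlf, the third PAR bZIP gene, fell: it had -0.42, -0.33 and -0.17 with MFAP5, against 0.44, 0.52 and 0.25 in Control, a difference of -0.71 ± 0.12 (SE; adjusted p = 0.0145). Both of its probe sets had negative differences, of -0.68 and -0.74. Nfil3, which encodes a repressor that competes with the PAR bZIP factors for D-boxes, rose: it had 0.21, 0.29 and 0.47 with MFAP5 and -0.30, -0.21 and -0.22 in Control, a difference of 0.57 ± 0.10 (SE; adjusted p = 0.0239). Hlf missed the threshold without MFAP5 replicate 1 (-0.65, adjusted p = 0.0614) or Control replicate 2 (-0.65, adjusted p = 0.0767). Nfil3 passed with Control replicate 1 left out and missed it, at 0.49 to 0.62, with any other array left out, and it missed it with the spike-in covariate (0.60, adjusted p = 0.0507), with the probe set of largest SD (adjusted p = 0.0563) and over the 50% of probe sets of larger SD (adjusted p = 0.0677). Of the loop genes that did not pass, Bhlhe40, a repressor of the dimer, differed by 0.46 (adjusted p = 0.152) and Rora, an activator of Arntl, by -0.25 (adjusted p = 0.236). The value of Rora was a mean of several probe sets, of which 1 passed over all probe sets, at -0.56 (limma adjusted p = 0.0417). Its other probe sets missed the threshold, with differences from -0.58 to 0.07. The 11 loop genes had a median difference of -0.07, beside -0.08 over all genes.

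**Figure D4:**
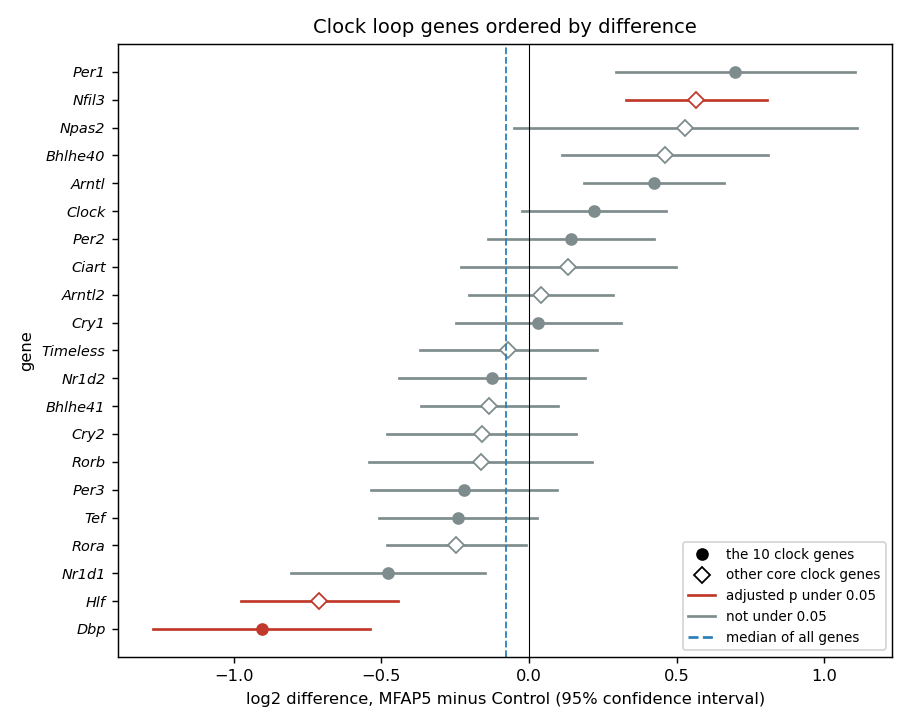
The 10 clock genes (filled circles) and 11 other core clock genes (open diamonds) ordered by their MFAP5 minus Control difference (log2, x axis, with 95% confidence intervals); the dashed line is the median of all genes. Dbp at -0.91 and Hlf at -0.71 are lowest and Nfil3 at 0.57 is second from the top below Per1 at 0.70, and red marks an adjusted p under 0.05.

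Of 9 measured genes listed as widely cycling outputs of the clock, 1 fell, where 2.79% of all genes did. All 9 had a negative difference, with a median of -0.31, where 11935 of all 18193 genes had a negative difference. Alas1, which encodes the first enzyme of heme synthesis, fell by 0.64 ± 0.10 (SE; adjusted p = 0.0101), with -0.35, -0.29 and -0.19 with MFAP5 and 0.35, 0.43 and 0.32 in Control. Without Control replicate 2 or 3 it missed the threshold (adjusted p = 0.0566 and 0.0543). Dtx4 differed by -0.45 (adjusted p = 0.0933) and Nampt, the enzyme of NAD salvage, by -0.31 (adjusted p = 0.192). Of 13 measured genes for proteins that modify clock proteins none passed by limma, while 2 were higher and 1 lower at an unadjusted p under 0.05. Among them Prkaa2, an AMP-activated kinase subunit, differed by -0.44 (adjusted p = 0.0577) and Fbxw11, a ubiquitin ligase subunit that recognises period proteins, by 0.36 (adjusted p = 0.0800). Single probe sets passed over all probe sets in Prkaa2 (-0.82, limma adjusted p = 0.0185), Csnk2a1 (0.76, adjusted p = 0.0204) and Gsk3b (0.76, adjusted p = 0.0445). Their other probe sets missed the threshold, at -0.26 and -0.23 in Prkaa2, -0.36 to 0.25 in Csnk2a1 and -0.15 to 0.60 in Gsk3b. Those of Fbxw11 ran from -0.10 to 0.82 and none passed.

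Genes tied to the stimuli that induce Per1 were listed too, those of CREB and its coactivators among them. Of 11 genes of cAMP and immediate early response, 4 rose and none fell, where 0.759% of all genes were called higher and 2.79% lower. The median difference was 0.66, with 9 positive and 2 negative differences, from -0.08 to 1.80. This list was chosen with earlier results of these data known. Nr4a1, an orphan nuclear receptor gene, rose by 1.80 ± 0.33 (SE; adjusted p = 0.0238), and Sik1, a salt-inducible kinase gene, by 1.37 ± 0.23 (adjusted p = 0.0171). Dusp1, a MAP kinase phosphatase gene, rose by 0.90 ± 0.13 (adjusted p = 0.00928) and Egr1, a zinc finger factor gene, by 0.66 ± 0.13 (adjusted p = 0.0309). Fosb and Junb, of the AP-1 factors, differed by 1.30 and 0.69 (adjusted p = 0.0572 and 0.0884). These 4 calls were all lost without Control replicate 2 or Control replicate 3; those of Nr4a1, Sik1 and Egr1 also without MFAP5 replicate 1, and that of Egr1 without MFAP5 replicate 3. With the spike-in covariate Dusp1 alone of the 4 passed, and with a variance trend in limma Nr4a1 did not (the same difference, adjusted p = 0.532). Egr1 missed the threshold with the probe set of largest SD (adjusted p = 0.0529).

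The MFAP5 arrays had the order replicate 3, replicate 1, replicate 2 from high to low in Per1 and in 7 of the 11 genes of that list, the 6 named among them, as when Nr4a1 read 1.47, 0.43 and 2.01 in replicates 1, 2 and 3. This likeness was noticed after the values were seen. The same order was found in 14.2% of all other genes, in 42.0% of the 138 genes called higher, and in 4 of 8 macrophage, 3 of 7 neutrophil and 5 of 14 endothelial markers. The medians of these marker lists had it too, at -0.08, -0.18 and 0.07 (macrophage), -0.16, -0.26 and -0.01 (neutrophil) and -0.08, -0.15 and -0.03 (endothelial) in MFAP5 replicates 1, 2 and 3. Those of the adipocyte, fibroblast and skeletal muscle lists did not. Dbp had another order, with replicate 1 highest and replicate 2 lowest, which 11.7% of all other genes and 5 of the 14 endothelial markers had. Of 10 measured glucocorticoid target genes none passed by limma. At an unadjusted p under 0.05, 3 were higher and 2 lower, where 5.33% and 14.4% of all genes were. Errfi1 differed by 0.86 (adjusted p = 0.0572), while Zbtb16, a zinc finger factor gene, differed by -0.41 (adjusted p = 0.0847).

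Adipocyte marker signals moved with the same groups. They were lower on every MFAP5 array, and the median difference of the list was -3.31. Of the 9 markers 8 fell, where 2.79% of all genes were called lower. The MFAP5 array with the lowest adipocyte median, replicate 1 at -3.99, had the highest Dbp signal of the MFAP5 arrays, at -0.27, and replicate 2, with an adipocyte median of -2.64, had the lowest, at -0.92. Hlf, at -0.42, -0.33 and -0.17, ran in the same order over the replicates as the adipocyte medians. Of the endothelial medians, that of MFAP5 replicate 2, at -0.15, was the lowest, as its Dbp signal was. The highest endothelial median of the MFAP5 arrays was that of replicate 3, at -0.03, while Dbp was highest in replicate 1. The relative signal of the 3′ minus the 5′ control probe set of beta-actin was 0.036 to 0.144 on the MFAP5 arrays and -0.053 to -0.005 in Control, with no overlap, while that of Gapdh, -0.038 to 0.086 with MFAP5 and -0.161 to 0.033 in Control, overlapped. Of other marker lists, 3 of 7 measured neutrophil genes fell, and 1 of 8 macrophage and 1 of 8 skeletal muscle genes. Of 8 fibroblast genes 1, Pi16, fell, while the other 7 had positive differences, with a median of 0.27 for the list. Of those 7, 3 had an unadjusted p under 0.05, where 5.33% of all genes were higher at that level. The part of cell composition and RNA quality in the clock gene differences was not tested.

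**Figure D5:**
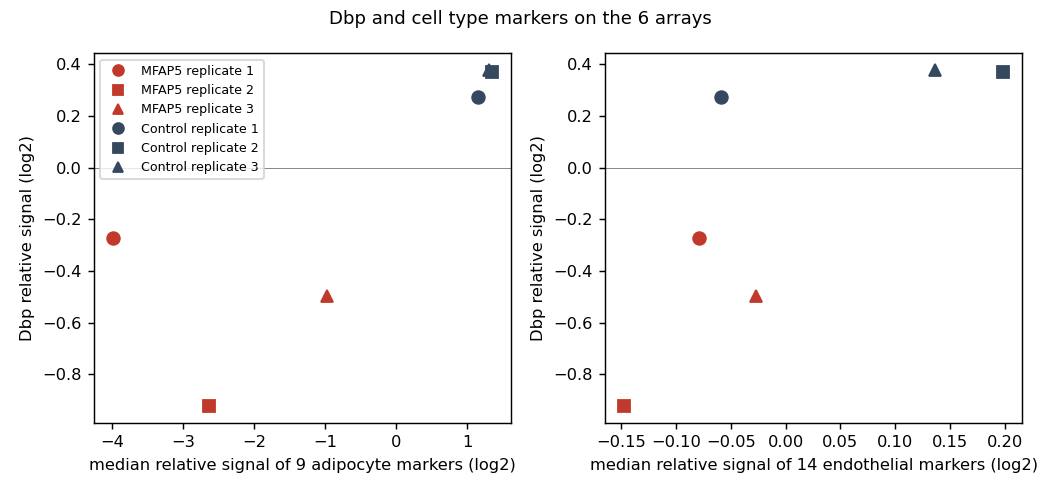
Relative log2 signal of Dbp (y axis) on each array against the median of 9 adipocyte markers (left) and of 14 endothelial markers (right), with MFAP5 arrays in red and Control arrays in dark blue. The MFAP5 arrays lie at adipocyte medians of -3.99 to -0.97 and Control at 1.15 to 1.35. Among the MFAP5 arrays the order of Dbp is neither that of the adipocyte nor that of the endothelial medians.

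As a description of pattern, the genes most like Dbp over the 6 arrays, members aside, were Capn6, Rab31, Plaat3, Polg2 and Acvrl1, with Pearson correlations between 0.995 and 0.998. Those most like Arntl were Gm17501, Snai2, Plod2, Tead2 and Dcn, with 0.988 to 0.995. Dcn is also on the list of 8 fibroblast markers, whose medians were 0.17, 0.10 and -0.01 in MFAP5 replicates 1, 2 and 3 and 0.03, -0.25 and -0.21 in Control, where replicate 1 overlapped the MFAP5 arrays. The 6 arrays share 2 groups, so any gene that separates them scores high: 522 genes exceeded 0.9 for Dbp and 163 for Arntl.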

How the data were processed

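RNA of 3 MFAP5 and 3 Control samples was amplified to biotin-labelled cRNA and hybridized to 1-colour arrays, per the labels' protocols. MAS5 is the tool named in the submitters' processing notes, without its scaling target. The authors deposited 1 log2 signal per probe set and array, as read from the values: all probe sets were centred on their median, and the widest spanned 8.24 units. The log base and the direction (higher for more signal) are not stated. Of 45101 probe sets 64 control probe sets were left out of the tests; 34945 of the rest had 1 gene symbol in the platform annotation, 932 several and 9160 none listed. Symbols were updated through Entrez identifiers in RefSeq (34741 matched), and none of the members changed. Centring allowed no filter on level.

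MFAP5 was set against Control in limma 3.58.1 under R 4.3.3 (lmFit, eBayes without trend, two-sided, Benjamini-Hochberg over all genes or all probe sets, threshold 0.05). The procedure was tested on simulated data. Named were all members, the genes of each list past the threshold (up to 4) and up to 2 others by smallest p, and the 5 genes most like Dbp and Arntl. Csnk2a1 and Gsk3b were also named, each for a single probe set that passed. The members and lists were chosen with earlier results of these data known. Of 58 genes on the 5 pathway lists 54 were measured under a single symbol. Alternatives changed the scaling, the variance model, the summary of probe sets, the arrays used and the covariates.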

Additional observations from a re-analysis of the deposited data

How the results depend on the processing

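The number of arrays limits the precision, and signal over background could not be assessed on centred values. Dbp kept a negative difference in all 17 alternatives and passed in 12. Of the 10 clock genes, Per2, Cry1 and Nr1d2 changed sign. With the probe set of largest SD, Per2 was at -0.057 and Nr1d2 at 0.16. Cry1 was at -0.013 with the spike-in covariate and at -0.070 (without Control replicate 3) to 0.096 with 1 array left out, and negative too without MFAP5 replicate 2 (-0.0011). Nr1d2 ranged over -0.213 to 0.012 with 1 array left out, positive without Control replicate 1. The cause was not tested.

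With array weights 2 clock genes rose and 2 fell, 10 of their probe sets passed, and 12 pathway genes rose, 6 fell and 4004 genes in all passed. With quantile normalization 1 clock gene rose. With the 50% of probe sets of larger SD, in which Cry1 had none left, 1 clock gene and 9 pathway genes rose, and 953 genes in all passed. That SD was taken over all 6 arrays, so probe sets were kept in part because the groups differed. This setting is among the 12 in which Dbp passed. With the spike-in covariate limma called 0 clock genes lower (3 at an unadjusted p under 0.05), 0 of their probe sets (8), 1 pathway gene higher and 364 genes. The unmoderated statistic called 0 clock genes lower (2 at an unadjusted p under 0.05), 0 of their probe sets (7), 0 pathway genes higher (12) and 0 lower (8), and 1 gene in all. A minimum log2 difference of 0.5 (limma treat), a stricter question by its construction, left 0 clock genes lower (1 at an unadjusted p under 0.05), 0 probe sets (1), 0 pathway genes higher (4) and 0 lower (0), and 137 genes.

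Leaving out 1 array gave 0 to 1 clock genes higher, 0 to 2 lower, 0 to 9 of their probe sets, 0 to 7 pathway genes higher, 0 to 5 lower, and 219 genes (without Control replicate 3) to 2674 (without Control replicate 1). The replicate block gave 743 genes against 646 without it, 2 member probe sets against 3, and no other call among the clock genes (Dbp adjusted p = 0.0250). Deviations of same-numbered samples correlated at 0.21, 0.05 and 0.09. Each MFAP5 sample correlated best with the Control of its own number, narrowly in replicate 2 (0.0545 against 0.0479) and replicate 3 (0.0851 against 0.0841). Control replicate 2 correlated best with MFAP5 replicate 3. The sample titles give replicate numbers and state no pairs, and the numbers were not taken as pairs.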
